A study of Arabidopsis thaliana with 31 samples.

Results

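The 9 genes described here encode Arabidopsis enzymes that rebuild the sugar acceptor in the Calvin cycle and reduce or interconvert its intermediates in the chloroplast. They are FBA1 (AT2G21330), FBA2 (AT4G38970) and FBA3 (AT2G01140) for aldolase, HCEF1 (AT3G54050) for plastid fructose bisphosphatase, SBPASE (AT3G55800), TKL1 (AT3G60750) for transketolase, RPE (AT5G61410), PGK1 (AT3G12780) and TIM (AT2G21170) for plastid triose phosphate isomerase. They were chosen by gene name, and every read whose alignment names a transcript of one of them was taken. All 9 had reads, and together they held 19518 of the 2786281 reads listed (0.701%), which name 19829 genes. The study asked how guanosines in poly(A) tails bear on binding by poly(A)-binding proteins, and poly(A)-seq was its assay for the tails. The RNA came from whole 2-week-old seedlings of the Col wild type, grown on plates at 23 °C with 16 h of light and 8 h of darkness. Of the 31 samples of the series, this 1 library was analysed and the other samples were not used here, so no value has a replicate error and no conditions were compared. The RNA was cut in part by RNase T1, which cleaves after G, captured by its tail, joined to an adaptor at the end of the tail and sequenced from the transcript into the tail. The deposited alignments hold the part left after trimming, so they give the base at which each transcript ended and not the composition or length of its tail.

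The Calvin cycle fixes carbon dioxide on ribulose bisphosphate, reduces the phosphoglycerate formed to triose phosphate, and returns most of that triose phosphate to ribulose bisphosphate. PGK carries out a step of the reduction, TPI balances the triose phosphates, and aldolase, the bisphosphatases, transketolase and RPE carry out the regeneration. These enzymes are encoded in the nucleus, so their mRNAs are cleaved and polyadenylated there. Cleavage often lies a short distance after a poly(A) signal related to AATAAA. Most of the reactions also run in the cytosol in glycolysis and gluconeogenesis, with enzymes encoded by other genes.

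The last 30 bases of the transcript at the most used 3′ end of each gene are shown because the results turn on where these mRNAs end and on what lies before the end. They were read 5′ to 3′ on the transcript strand from TAIR10.1, and the tail followed the last base. Capitals mark AATAAA or a hexamer that differs from it by 1 base, where such a hexamer began in these bases and lay 10 to 40 nt upstream of the end. TKL1 is shown with an end of its proximal cluster as well, and PGK1 with 2 further ends that carry most of its A-rich surroundings.
FBA1, chr2:9128309-9128338, minus strand: ttcttcaggTATAAAagtcagttctgtgtt
FBA2, chr4:18163561-18163590, minus strand: ttAATAAGttctattatattgaagttatct
FBA3, chr2:94837-94866, minus strand: aaacatcctcttaaatctatatttcctctc
HCEF1, chr3:20018602-20018631, plus strand: gcataatggtgaaagtcctattttgttgtc
SBPASE, chr3:20711489-20711518, plus strand: gtttataagagaagcaacaaaacttgtgat
TKL1 distal, chr3:22457049-22457078, plus strand: tcgtgtaatgctaaatgcttgaatttcagc
TKL1 proximal, chr3:22456907-22456936, plus strand: catatctcgaAATAAAgtgcaacaagacac
RPE, chr5:24683613-24683642, minus strand: tgacttatAATAAAgcatttcatttgtctt
PGK1 at 82 nt, chr3:4061045-4061074, minus strand: gctttaaatctacctatgcaaaactttact
PGK1 at 134 nt, chr3:4060993-4061022, minus strand: ggaaAAGAAAactcacatattaaaattctg
PGK1 at 106 nt, chr3:4061021-4061050, minus strand: tttactatgtatcagagtctcattccccgg
TIM, chr2:9070798-9070827, minus strand: tctttttttcaatttgagtaagcttgactc
All of these windows lie in the annotated 3′-UTR of the gene. Only the RPE window and the proximal TKL1 window hold AATAAA, and every line but the RPE line was followed by an A in the genome.

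Reads were spread unevenly over the 9 genes. FBA2 had 6520 reads (95% Poisson interval, 6363 to 6680), PGK1 had 5333 (5191 to 5478) and FBA1 had 3773 (3654 to 3895), and these 3 genes held 15626 reads, or 80.1% of the 9. TKL1 followed with 1221 reads (1153 to 1291). HCEF1 had 820 reads (765 to 878) and SBPASE 726 (674 to 781), a ratio of 1.13 (1.02 to 1.25). RPE had 595 reads (548 to 645). FBA3 had 289 reads (257 to 324) and TIM 241 (212 to 273), a ratio of 1.20 (1.01 to 1.43). Neighbours in this order therefore differed beyond counting error, by a small margin in these last 2 pairs. Each read ends at 1 tail, so counts were not divided by gene length. The authors kept only reads with a recognizable 3′ adaptor. Counts may therefore also depend on tail length and on where a fragment starts, which was not tested. In whole seedlings, fewer cells that express a gene and less mRNA per cell cannot be told apart. The intervals cover counting error only. The 3 random bases of each read were removed before alignment, and the reads need not be separate molecules.

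Set against the library, where the median gene had 20 reads (quartiles, 6 and 63), the 9 genes were all well covered. 7 of the 9 were among the 1000 genes with the most reads, a set that takes 5.04% of the genes and needed 405 reads. The exceptions were FBA3 at rank 1388 and TIM at rank 1626, while FBA2 stood at rank 51, PGK1 at rank 61 and FBA1 at rank 84. Leaf genes led the library, with 44235 reads for RBCS1A, 36893 for CAB2 and 13022 for RCA, and root genes were present, with 2556 reads for PYK10, 21 for CASP1 and 12 for EXPA7. No read named the flower genes AP3 and AG or the seed genes CRA1 and OLEO1, each of which allows up to 3 reads. These markers go with the labelled tissue, a whole seedling with leaves and roots.

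**Figure D1:**
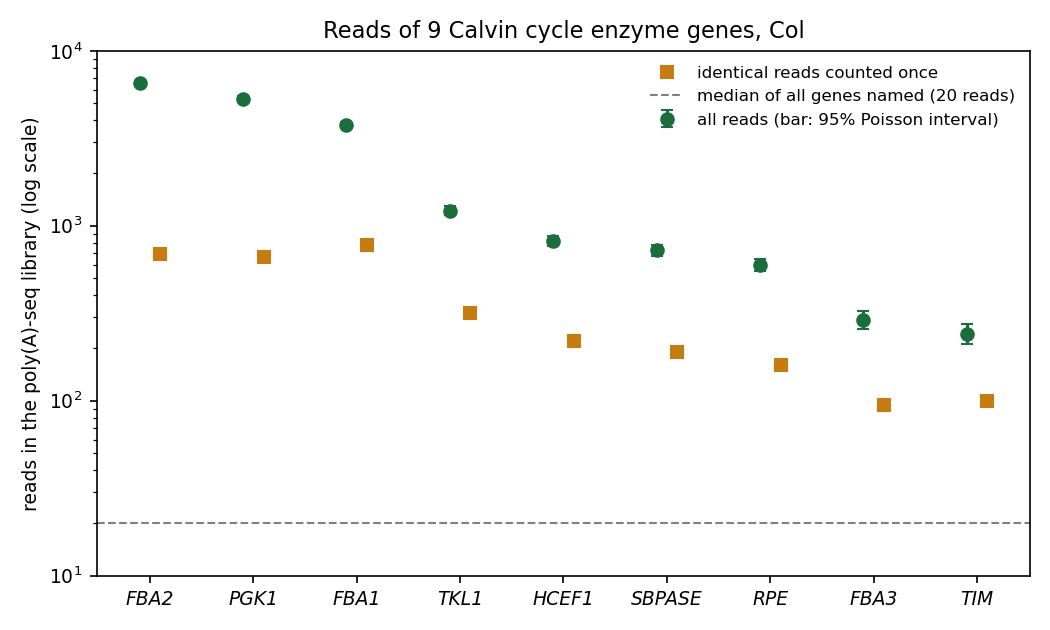
Reads of each of the 9 genes in the Col poly(A)-seq library on a log axis, as all reads with 95% Poisson intervals (circles) and with identical reads counted once (squares); the dashed line is the median of all genes named, 20 reads. All reads span 241 (TIM) to 6520 (FBA2), and the first 3 genes draw close to each other once identical reads count once.

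Many reads repeated the start, end and strand of another read of the gene. With each such set counted once, 3201 distinct reads remained for the 9 genes, so 83.6% of their reads were repeats, against 76.2% in the library. The repeats were concentrated in the abundant genes, with 9.48 reads per distinct read in FBA2 and 8.07 in PGK1, against 2.43 in TIM and 3.07 in FBA3. Counted this way, FBA1 came first with 773 distinct reads, FBA2 had 688 and PGK1 661. The lead of FBA2 over FBA1 in all reads was therefore not seen in distinct reads, where FBA1 had more. Distinct reads are limited by the start and end positions in use. FBA1 had 188 starts and 110 ends, against 137 and 72 in FBA2, so this count does not settle their order. TKL1 had 317 distinct reads, HCEF1 219, SBPASE 191, RPE 159, TIM 99 and FBA3 94, so TIM and FBA3 changed places. Among distinct reads the ratios of FBA2 to PGK1 (1.04, 0.93 to 1.16), HCEF1 to SBPASE (1.15, 0.94 to 1.40), SBPASE to RPE (1.20, 0.97 to 1.49) and TIM to FBA3 (1.05, 0.79 to 1.41) had intervals that include 1. The origin of the repeats was not tested. The most used read start followed a T in FBA2 (1140 reads), FBA1 (456 reads) and SBPASE, and an A in PGK1 (705 reads). It followed a C in TKL1 and RPE and a G in FBA3, HCEF1 and TIM.

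Aldolase joins the triose phosphates to fructose bisphosphate and also forms sedoheptulose bisphosphate. It was represented by 3 plastid genes that differed both in reads and in how their ends were placed. FBA1 (chromosome 2, 9128122 to 9130619, minus strand) ended at 110 different bases, the most of the 9 genes. Its most used end lay 107 nt after the stop codon with 1028 of 3773 reads (27.2%, Clopper-Pearson interval 25.8 to 28.7), and its next ends lay at 168 nt (485 reads), 264 nt (288 reads) and 110 nt (231 reads). It took 28 bases to cover 90% of its reads. FBA1 mRNA was thus cleaved across much of its annotated 3′-UTR of 294 nt, with quartiles at 107 and 197 nt.

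FBA2 (chromosome 4, 18163496 to 18166008, minus strand) had more reads but a tighter distribution. The base 153 nt after the stop codon took 3151 of 6519 reads on the sense strand (48.3%, 47.1 to 49.6), the highest share at 1 base among the 9 genes. The next ends were 149 nt (1056 reads) and 156 nt (647 reads), so that 10 bases covered 90% of the reads. Its hexamer AATAAG began 27 nt before the last base at the main end and 23 nt before it at the end of 149 nt. FBA2 also gave the only antisense read of the 9 genes, against 4.49% of reads in the library.

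FBA3 (chromosome 2, 94727 to 96863, minus strand), the plastid aldolase gene with the fewest reads, had 17 end positions, and 124 of its 289 reads (42.9%, 37.1 to 48.8) ended 169 nt after the stop codon. Ends within 10 nt of each other formed a cluster at 138 to 172 nt with 80.6% of the reads and a smaller cluster at 190 to 195 nt with 13.8%. The neighbouring gene on the same strand, AT2G01130, began 84 nt after the main end and had 6 reads of its own. By aligned coding sequence FBA1 and FBA2 were 82.9% identical and FBA1 and FBA3 70.0%, whereas their 3′-UTRs were 47.6% and 48.4% identical. Reads of the 3 genes lie in these dissimilar 3′-UTRs, and each mapped stretch of FBA1, FBA2 and FBA3 was found at 1 place in the genome.

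HCEF1, the plastid fructose bisphosphatase (chromosome 3, 20016837 to 20018822, plus strand), removes a phosphate from fructose bisphosphate. Its reads were shared by 3 ends of like size, with 196 reads at 104 nt after the stop codon (23.9%, 21.0 to 27.0), 176 at 140 nt and 148 at 134 nt. The ratio of the first to the second was 1.11 (0.90 to 1.37), so no leading end was resolved. The annotation gives 2 models that stop at the same codon, and all 820 reads ended outside the exons of model 2, whose 3′-UTR of 66 nt is interrupted by an intron. The annotation of the convergent gene AT3G54060, on the opposite strand, is reached 25 nt after the main end, and 48.5% of HCEF1 reads (45.1 to 52.0) ended inside it. Of the 52 reads that name AT3G54060, 51 were antisense to it. Assigned by position rather than by name, they raised HCEF1 to 871 reads.

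SBPASE (chromosome 3, 20709294 to 20711640, plus strand) encodes sedoheptulose bisphosphatase, an enzyme found in the cycle and not in glycolysis. It had the shortest used 3′-UTR of the 9 genes, with a median end 99 nt after the stop codon against 219 nt annotated. The main ends were at 97 nt with 237 of 726 reads (32.6%, 29.2 to 36.2) and at 110 nt with 183 reads (25.2%, 22.1 to 28.5). With identical reads counted once the end at 110 nt took the lead, with 35 of 191 distinct reads, so the order of the 2 ends depended on the repeats. The line printed for SBPASE holds AACAAA, which lay closer to the end than the window searched. At the end of 110 nt the same hexamer began 27 nt before the last base.

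TKL1 (chromosome 3, 22453668 to 22457458, plus strand), which encodes a plastid transketolase, moves carbon units between sugar phosphates. It was the 1 gene of the 9 whose reads fell into a pair of large separate clusters. The distal cluster, 250 to 299 nt after the stop codon, had 641 reads (52.5%, 49.7 to 55.3), and the proximal cluster, 105 to 159 nt, had 505 (41.4%, 38.6 to 44.2). Within the distal cluster 429 reads ended at 1 base, 254 nt from the stop codon, while the proximal reads were spread over ends such as 125 nt (122 reads) and 112 nt (115 reads). AATAAA lay upstream of these proximal ends and of no distal end among the 4 most used. No TKL1 read ended near the end of model 1. That model runs 634 nt past the stop codon and the farthest read ended at 355 nt, whereas model 2 stops at 111 nt and 1176 reads (96.3%) ended past it. When ends within 24 nt were joined instead of 10 nt, the clusters merged into a site 228 nt wide.

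RPE (chromosome 5, 24683606 to 24686217, minus strand) encodes ribulose phosphate epimerase, which makes ribulose phosphate from xylulose phosphate. Its ends lay at the limit of the annotated model. A pair of adjacent bases, 286 nt (192 reads) and 285 nt (190 reads) after the stop codon, took 32.3% and 31.9% of 595 reads, and the model ends at 293 nt. The cluster at 276 to 293 nt held 79.0% of the reads and a second one at 243 to 264 nt held 16.5%. Of its reads, 34 ended within 5 nt of the annotated end, and since alignments were made to transcripts, a read past that end could not have been listed. RPE also stood apart in the base that follows in the genome. That base was A for 20.7% of its reads, against 83.1% for the 9 genes together and 80.5% in the library.

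PGK1 (chromosome 3, 4060920 to 4063306, minus strand), which phosphorylates phosphoglycerate with ATP, spread most of its reads over 4 ends. They lay at 82 nt after the stop codon (1141 reads, 21.4%, 20.3 to 22.5), 134 nt (934 reads, 17.5%, 16.5 to 18.6), 125 nt (864 reads, 16.2%) and 106 nt (695 reads, 13.0%). The first exceeded the second beyond counting error in all reads, which include many repeats (8.07 reads per distinct read). With identical reads counted once the end at 82 nt still led, with 63 of 661 distinct reads (9.53%). Of its 74 end positions, 11 covered 90% of the reads. Its median end was 106 nt after the stop codon, against 207 nt annotated. PGK1 and its plastid paralog PGK2 were 86.3% identical in coding sequence and 50.4% in the 3′-UTR, and PGK1 reads carried high mapping scores, with 5302 at 10 or above.

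TIM, the plastid triose phosphate isomerase (chromosome 2, 9070734 to 9074470, minus strand), had the fewest reads and scattered ends. The most used end, 249 nt after the stop codon, took 50 of 241 reads (20.7%, 15.8 to 26.4), and the next, 262 nt, took 38 (15.8%, 11.4 to 21.0). Their ratio was 1.32 (0.85 to 2.06). The ends ran from 125 to 313 nt, which is the last base of the annotated model, and 12 bases were needed for 90% of the reads.

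**Figure D2:**
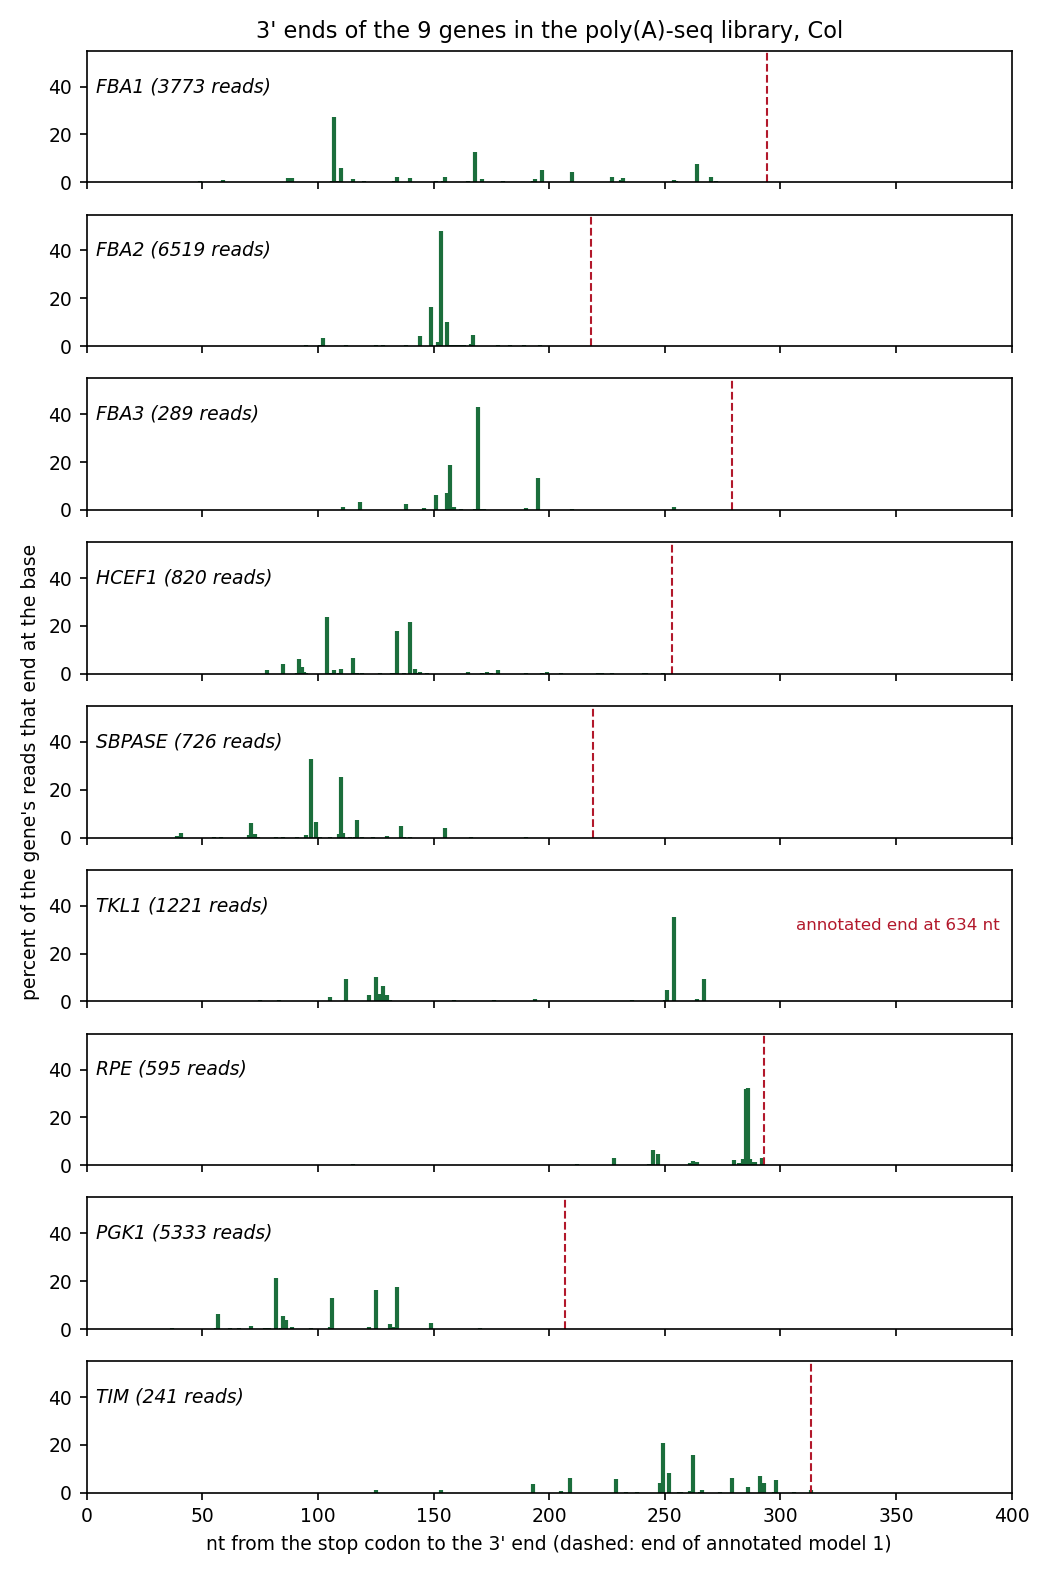
Percent of each gene's sense reads that end at each base, by distance from the stop codon in nt; the dashed line is the end of annotated model 1 (beyond the axis for TKL1, at 634 nt), and 2 FBA1 reads before the stop codon are not drawn. FBA2 has 48.3% of its reads at 153 nt, TKL1 has separate clusters at 105 to 159 and 250 to 299 nt, and only RPE has its most used end within 10 nt of the annotated end.

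Every sense read of the 9 genes, 19517 in all, ended in the 3′-UTR of the annotated model that its alignment named. In the library 98.2% did, where some reads name noncoding transcripts. A count of 0 outside such 3′-UTRs allows up to 0.0154% of these reads. The nearest exception was a pair of FBA1 reads that ended 205 nt before the stop codon of model 1. That base is coding in models 1 and 3 and lies in the longer 3′-UTR of model 2, under which it was counted. In the other 8 genes all sense reads ended after the stop codon of model 1.

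The median end lay before the annotated end in all 9 genes, a direction that the alignment to transcripts fixes, since reads past the annotated end are not listed. Over the genes, the median distance from the stop codon to the end was 153 nt, within a range of 99 nt (SBPASE) to 285 nt (RPE), against a median of 179 nt (quartiles, 139 and 228) over the 9294 library genes with a stop codon and at least 20 reads. In percent of the annotated 3′-UTR, the 9 genes had a median of 51.2%, with 39.6% in TKL1, 45.2% in SBPASE and 45.5% in HCEF1 at the low side and 80.5% in TIM and 97.3% in RPE at the high side. The library median was 65.9% (quartiles, 49.7 and 80.7). TKL1, RPE and TIM had long used 3′-UTRs, with medians of 251, 285 and 252 nt, and the other 6 had medians of 169 nt or less.

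**Figure D3:**
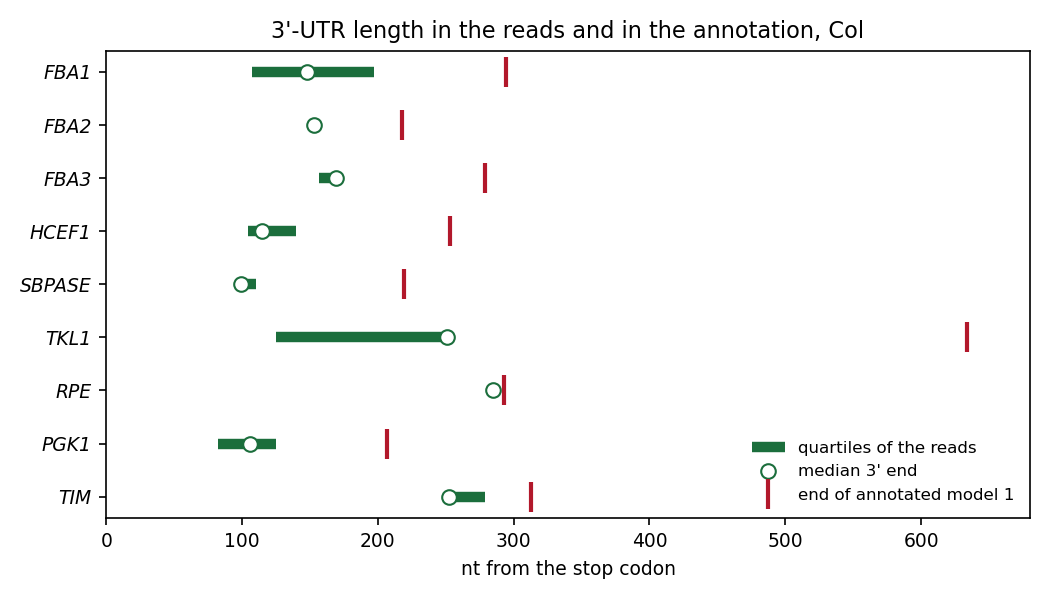
Distance from the stop codon in nt to the median 3′ end of each gene's reads (circles), with the quartiles of the reads (bars) and the end of annotated model 1 (red ticks). The median lies well before the annotated end in every gene except RPE, at 285 of 293 nt, and the gap is widest in TKL1, at 251 of 634 nt.

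The share of reads at the most used base was close to that of the library. In the 9 genes the most used base held 32.3% of the reads at the median, within 20.7% to 48.3%, against 34.5% in the library and 34.1% among the 1819 genes with at least 200 reads. The number of end positions was 17 to 110 with a median of 40, against 32 in those 1819 genes. The main site is the group of joined ends with the most reads. With ends joined within 24 nt it held 99.9% at the median, against 94.3% in the library and 99.5% in those 1819 genes. With 10 nt it held 92.7%, against 67.1% in the library, a value that was not limited to genes with at least 200 reads. Ends were joined in chains, so a high share does not mean a narrow site. The main site of FBA1 was 270 nt wide with 24 nt. With 10 nt the main sites were 18 nt (RPE) to 229 nt (FBA1) wide. With identical reads counted once, the median share at the most used base was 15.8%, and the leading base moved in SBPASE, HCEF1 and RPE. The end at a single base was therefore less certain in these 3 genes than the region in which they end.

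The canonical signal was searched on the transcript strand in the window 10 to 40 nt upstream of the most used end. AATAAA was found in 1 of the 9 genes, RPE, where 12.0% of the 9365 library genes with at least 20 reads had it. Counting hexamers that differ from AATAAA by 1 base, together with AATAAA itself, 4 of the 9 genes had a match, against 49.3% in the library. These were FBA1 with TATAAA, FBA2 with AATAAG, RPE with AATAAA and HCEF1, whose hexamer began before the bases printed. TGTA occurred in the 60 nt upstream in 4 of the 9, FBA3, PGK1, TKL1 and TIM, against 50.2%. T made up 26.7% (SBPASE) to 50% (FBA2 and TIM) of the last 30 bases, with a median of 40% in the 9 genes and in the library. Each count stood near the share in the library, and a match describes letters and not a working site.

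The base before the tail was T in 64.4% of the reads of the 9 genes (63.8 to 65.1), against 52.6% in the library, and C in 20.8%, against 35.8%. T ranged from 25.4% in TKL1 to 88.4% in SBPASE, and FBA2, the gene with the most reads, had 80.0%. TKL1 and FBA3 ended mostly in C, with 72.2% and 65.1% of their reads, and PGK1 had G as the last base in 39.5%, mainly from its ends at 134 and 106 nt. At the most used end, the next genome base was A in 8 of the 9 genes, where 90.4% of library genes had it, RPE being the exception. Where the genome continues with A, the last base of the transcript and the first base of the tail cannot be told apart, so such ends may lie up to the length of that A run farther downstream. The runs were short, with a mean of 1.801 nt per read in the 9 genes and 1.498 nt in the library.

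Reads that end before an A-rich stretch of the genome were counted because there A's of the genome and of a tail cannot be separated in the trimmed reads. An end was called A-rich when at least 6 A in a row or 7 A in the next 10 bases followed. Such ends held 11.4% of the reads of the 9 genes, against 6.13% in the library. PGK1 supplied 2040 of these 2233 reads, 38.3% of its own. In FBA1, FBA2 and RPE there were none, HCEF1 had 79 (9.63%) and FBA3 38 (13.1%). The PGK1 end at 134 nt was followed by aaaaaaaata and that at 106 nt by aaaagaaaac. The share for the 9 genes together therefore described PGK1 more than the others. Whether PGK1 reads at these ends carried a tail added after cleavage was not tested.

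Because guanosines in tails were the interest of the study, it was asked whether the genome itself could give a run of A's with a G at these ends. No read of the 9 genes was followed within 30 nt by at least 5 A starting at the end and then a G, out of 19517, which allows up to 0.0154%, against 0.742% in the library. With at least 4 A, a looser limit chosen after the values were seen, 788 reads (4.04%) qualified, 720 of them in PGK1 (13.5% of its reads) and 68 in FBA1, against 1.62% in the library. The PGK1 end at 106 nt held 695 of the 720 PGK1 reads, and the other 7 genes had none.

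Alignment scores were low for 4 of the 9 genes. The deposited score is 0 or 1 where a read matches several transcripts equally well. More than 90% of the reads had such a score in FBA1 (96.9%), FBA2 (100%), RPE (100%) and TIM (92.9%), where 37.0% of library genes did. In the other 5 genes the share was 0.138% (SBPASE) to 3.93% (TKL1). The 4 genes each have 2 or 3 annotated models that share the 3′-UTR, and their reads were divided almost evenly among the models, as 1358, 1214 and 1201 in FBA1, 3233 and 3287 in FBA2, 297 and 298 in RPE, and 91, 76 and 74 in TIM. The mapped sequences of these genes were each found at 1 place in the genome. Of the 116 FBA1 reads with a score of at least 10, 114 ended past the last base of models 2 and 3, where model 1 alone continues, and in TIM all 16 such reads did. For most reads of these 4 genes the model could not be told apart, whereas in TKL1 1194 of 1221 reads named model 1 and in HCEF1 all 820 did.

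The mapped stretch runs from the start of the trimmed read to the last base before the tail. Its median was 54 nt for the 9 genes and 58 nt in the library, within 42 nt in FBA3 and 78 nt in SBPASE. At the median, 69 nt (SBPASE) to 105 nt (FBA3) of a 150-nt read were left for tail and adaptor after 3 random bases. The length of tail that could be read thus differed between the genes, and tail lengths were not analysed here. The base before the mapped start was G in 21.1% of the reads (20.5 to 21.6), against 19.7% in the library. It was G in 51.9% of TIM reads, 39.8% of FBA3 reads and 35.4% of HCEF1 reads, and in these G preceded the most used start. RPE had the lowest share, 9.92%. Over distinct start positions the share was 13.9% (FBA2) to 27.7% (TIM), so the high values in TIM, HCEF1 and FBA3 came in large part from starts with many reads.

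Of the reactions with both kinds of gene, 5 could be compared within the library between plastid and cytosolic genes. PGK had the widest gap, with 6939 reads on the plastid genes PGK1 and PGK2 and 272 on the cytosolic PGK3, a ratio of 25.5 (22.6 to 28.9). For RPE, 595 reads named the plastid gene and 82 the cytosolic pair AT1G63290 and AT3G01850, a ratio of 7.26 (5.75 to 9.26). Plastid aldolase genes had 10582 reads and cytosolic ones 1979, a ratio of 5.35 (5.10 to 5.61), and most of the cytosolic reads came from FBA5 (1141) and FBA8 (599). Fructose bisphosphatase followed with 820 reads on HCEF1 and 297 on the cytosolic gene AT1G43670, a ratio of 2.76 (2.41 to 3.16). A further plastid bisphosphatase gene, AT5G64380 with 36 reads, was left out of this ratio, whereas the PGK ratio includes PGK2. Triose phosphate isomerase went the other way. TIM had 241 reads and the cytosolic AT3G55440 had 1794, a ratio of 0.134 (0.117 to 0.154).

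In identical reads counted once, the directions were the same but the ratios lay closer to 1. The larger count of each pair fell by a larger factor. Distinct reads are limited by the start and end positions in use, and the origin of the repeats was not tested. The shift toward 1 therefore neither checks nor settles the size of the ratios. PGK had 826 plastid and 97 cytosolic reads, a ratio of 8.52 (6.89 to 10.6), and RPE had 159 and 49, a ratio of 3.24 (2.34 to 4.57). Aldolase had 1555 and 611, a ratio of 2.55 (2.32 to 2.80), and fructose bisphosphatase had 219 and 113, a ratio of 1.94 (1.54 to 2.45). Triose phosphate isomerase had 99 and 468, a ratio of 0.212 (0.169 to 0.263). Scores of at least 10 leave 0 reads for plastid RPE and 404 for plastid aldolase, because the reads on shared models are lost, and cytosolic PGK3 is then at 0 as well. Under that limit only PGK and fructose bisphosphatase had more reads on plastid genes. The ratios are of reads in 1 library, with intervals for counting error only, and the size of the difference between seedlings is not known.

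**Figure D4:**
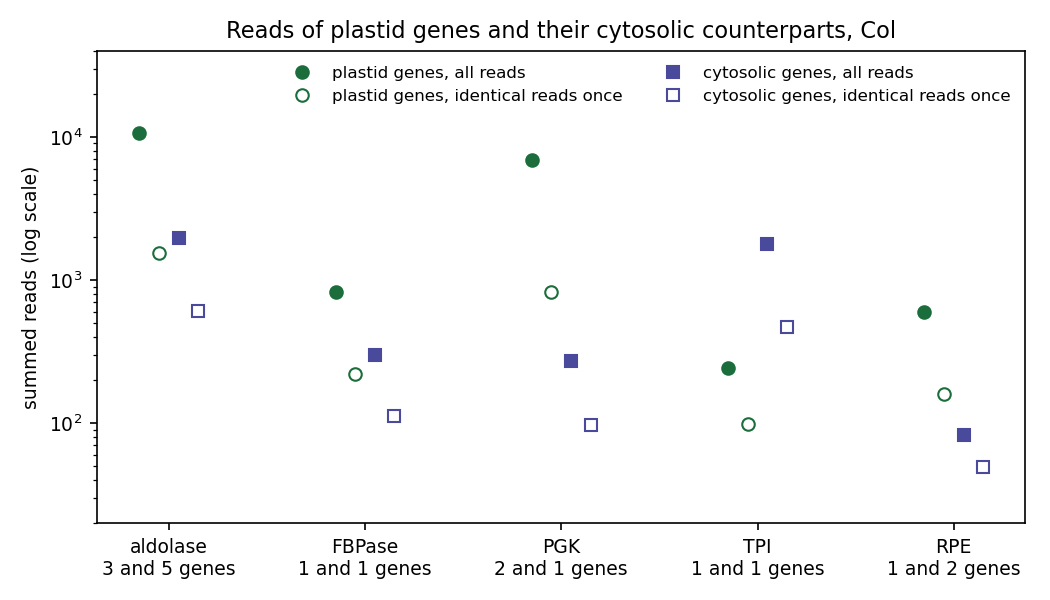
Summed reads of the plastid genes (circles) and, to their right, of the cytosolic genes (squares) of 5 enzymes on a log axis, filled for all reads and open with identical reads counted once; the line under each enzyme gives the number of plastid and cytosolic genes. Plastid genes have more reads for aldolase, FBPase, PGK and RPE, and the cytosolic gene has more for TPI, 1794 against 241.

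The other genes of the cycle were counted from a list of 16 that holds Rubisco small subunits, Rubisco activase, the GAP dehydrogenases, phosphoribulokinase, CP12, ribose phosphate isomerase and further isoforms. The 9 genes had a median of 820 reads and the 16 listed genes a median of 1735, with 104712 reads in all and a read on each. Of the 16 genes, 12 were among the 1000 with the most reads, a set that takes 5.04% of the genes with a read. The Rubisco small subunit genes RBCS1A (44235 reads) and RBCS3B (25688 reads) had the most reads of the 16. Members of the same families differed widely, as in TKL1 with 1221 reads and its paralog TKL2 with 45, or PGK1 with 5333 and PGK2 with 1606. HCEF1 had 820 reads and the second plastid bisphosphatase gene, AT5G64380, had 36. Phosphoribulokinase, which completes the regeneration that RPE feeds, had 1757 reads, and ribose phosphate isomerase (AT3G04790), which supplies the same intermediate as RPE, had 240, against 595 for RPE.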

How the data were processed

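Poly(A)-seq of 1 Col library was used. Per the labels and methods, the authors digested RNA with RNase T1, selected poly(A) and ligated adaptors. They kept reads with a recognizable 3′ adaptor and removed 3 random bases, the adaptor and the tail (A's with up to 5 interspersed G). Reads of at least 18 nt were aligned with Bowtie2. The deposited alignments give a transcript, positions in it, a strand and a mapping quality score from 0 to 42. Removal of duplicates is not given in the sources used here for this library. The labels name TAIR10, while the release of the transcripts is not given in the sources used here.

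Reads were counted by the gene named. The last aligned base was taken as the 3′ end and placed on TAIR10.1 (RefSeq) through the exons of the transcript of the same name. In the library 32879 reads were left out of placed values because the annotation lacks their transcript (19281) or places some read of it beyond its last base (13598), and no read of the 9 genes was lost. Distances run from the stop codon of model 1. Genes with at least 20 placed sense reads (9365) gave the library values. Shares have 95% Clopper-Pearson intervals, counts and ratios exact intervals. No test was run, since there is 1 library. Gene names are RefSeq symbols, with FBA3, TKL1 and names of listed isoforms from common use. Identity is over pairwise alignments of model 1. Scripts were tested on simulated data. Python 3.11.15, numpy 2.4.6, pandas 2.3.3, scipy 1.17.1, biopython 1.88 and matplotlib 3.10.9 were used.

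All 9 genes are named in the text, with the isoforms and other cycle genes listed. Members and lists were chosen with earlier results of these data known. Alternatives were a mapping quality of at least 10, identical reads counted once, assignment by position, other windows, stricter A-rich limits, a 10-nt join and, added after the data were seen, a run of at least 4 A.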

Additional observations from a re-analysis of the deposited data

How the results depend on the processing

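Of 39 values recomputed under the alternatives for 15 results, 21 stayed within the limit used, which was 1.5 times for counts and the interval of the value for shares and medians, and 18 moved beyond it, some of them by little. Limiting the reads to a mapping quality of at least 10 left 8407 of the 19518 reads of the 9 genes, because FBA2 and RPE lost all reads and FBA1 and TIM most of theirs. In that set no gene had AATAAA before its most used end (0, against 1), 26.1% of the reads ended before an A-rich stretch, 82.7% were repeats, 18.9% had G before the start, the median mapped length was 64 nt, and 2 instead of 4 enzymes had more reads on plastid genes. Counting identical reads once left 3201 reads, with 54.3% of scores at 0 or 1 (56.8% in all reads), 15.8% at the most used base, 9.59% before an A-rich stretch, 19.4% with G before the start and a median length of 59 nt. Joining ends within 10 nt lowered the median share of the main site to 92.7%, against 99.9%. Allowing 1 changed base raised the count of genes with AATAAA to 4. The stricter A-rich limit of 8 A in a row or 9 of 10 gave 5.17%, against 11.4%. Runs of at least 4 A before a G gave 4.04% of reads, against 0. G preceded the 3 trimmed bases in 9.76% of reads, against 21.1% for the base directly before the start. No paired analysis was possible because there is 1 library and no result comes from a test. With identical reads counted once, the ratios of plastid to cytosolic reads were 8.52 for PGK, against 25.5, 3.24 for RPE, against 7.26, and 2.55 for aldolase, against 5.35. The order of HCEF1 and SBPASE was then within counting error. The origin of the repeats was not tested, so the shifts of the plastid to cytosolic ratios toward 1 neither check nor settle their size.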
